A study of Homo sapiens with 14 samples.

Results

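SIM1, SIM2, ARNT2, FOXD1, FOXA1, FOXA2, FOXB1, NKX2-2, NKX6-1 and DBX1 are 10 transcription factor genes that pattern the hypothalamus, the floor plate and other ventral territories of the embryonic brain. They were taken as a list by gene symbol, with earlier results of these data known, and were matched to their Ensembl identifiers in a table of 58051 genes. All 10 were among the 17102 genes with enough reads to test. SIM1 and NKX6-1 stayed under a normalized count of 10 in every KO library and passed that filter through the other groups.

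Gene expression was measured by RNA sequencing in progenitors grown to resemble the medial ganglionic eminence (MGE), the ventral forebrain territory that gives rise to cortical interneurons. The cells came from H9, a human embryonic stem cell line, and all 4 groups were collected on day 25 as neurospheres. Every group had received SB431542 (2 µM) and LDN193189 (200 nM) up to day 6, and SHH (250 ng/mL) with purmorphamine (0.3 µM), an activator of the hedgehog receptor component smoothened, on days 10 to 17. The question was how the level of CTNNB1, the gene of beta-catenin, bears on gene expression in these progenitors. The KO group was the Ctnnb1 knockout (n = 5). The OE with Dox group carried inducible Ctnnb1 overexpression and was given doxycycline (0.1 µg/mL, days 17 to 25, n = 3). The OE without Dox group was the same inducible line without the drug (n = 3), and the WT group was wild type (n = 3). As WT cells were never given doxycycline, effects of the drug and of the transgene cannot be told apart. The labels do not say how the knockout was made, which form of CTNNB1 was induced, or whether replicates were separate differentiations, so p-values measure only the spread between these samples.

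Beta-catenin joins cadherins at cell contacts and carries canonical Wnt signals to the nucleus, where it works with TCF/LEF factors. In the embryonic brain, Wnt signals act mainly on dorsal and posterior fates, while SHH from the notochord, prechordal plate and floor plate sets ventral fates. SIM1 and ARNT2 are basic helix-loop-helix PAS proteins that act as a pair, and both are needed in mice for the neurosecretory neurons of the anterior hypothalamus. SIM2 is their close relative. FOXB1 is needed in mice for the mammillary body, FOXD1 marks ventral diencephalon, and FOXA1 and FOXA2 are the forkhead factors of the floor plate and of endoderm. NKX2-2, NKX6-1 and DBX1 are homeodomain factors that divide the ventral neural tube into progenitor domains.

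The promoters of FOXD1, FOXA1, FOXB1, NKX6-1 and DBX1 are shown because these 5 genes were lower in KO and higher in OE with Dox. RefSeq (GRCh38.p14) held promoter windows for 7 of the 10 genes, each running from 250 bases before to 50 after an annotated start. The windows are printed 5′ to 3′ on the strand of the gene, with matches to the TCF/LEF core (CTTTG followed by A or T at both of the next positions, on either strand) in capitals. FOXD1 lies at chr5:73448728-73449027 (minus strand), FOXA1 at chr14:37595200-37595499 (minus), FOXB1 at chr15:60004061-60004360 (plus), NKX6-1 at chr4:84499243-84499542 (minus) and DBX1 at chr11:20160426-20160725 (minus).
FOXD1: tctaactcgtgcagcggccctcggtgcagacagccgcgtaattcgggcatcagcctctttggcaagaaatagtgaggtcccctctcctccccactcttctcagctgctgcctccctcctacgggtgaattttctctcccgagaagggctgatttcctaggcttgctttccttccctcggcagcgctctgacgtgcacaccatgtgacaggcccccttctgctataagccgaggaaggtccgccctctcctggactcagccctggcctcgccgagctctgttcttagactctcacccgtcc
FOXA1: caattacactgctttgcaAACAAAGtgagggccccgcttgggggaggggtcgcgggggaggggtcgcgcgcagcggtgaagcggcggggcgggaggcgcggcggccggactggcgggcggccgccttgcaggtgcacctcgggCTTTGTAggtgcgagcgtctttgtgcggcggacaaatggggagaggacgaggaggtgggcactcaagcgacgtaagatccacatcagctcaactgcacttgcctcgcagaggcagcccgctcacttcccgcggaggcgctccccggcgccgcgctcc
FOXB1: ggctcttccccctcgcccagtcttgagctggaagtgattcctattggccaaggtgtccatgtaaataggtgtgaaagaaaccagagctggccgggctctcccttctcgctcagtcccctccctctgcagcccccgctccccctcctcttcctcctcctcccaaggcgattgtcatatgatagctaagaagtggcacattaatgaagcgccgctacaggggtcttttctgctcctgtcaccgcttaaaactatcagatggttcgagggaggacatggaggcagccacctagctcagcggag
NKX6-1: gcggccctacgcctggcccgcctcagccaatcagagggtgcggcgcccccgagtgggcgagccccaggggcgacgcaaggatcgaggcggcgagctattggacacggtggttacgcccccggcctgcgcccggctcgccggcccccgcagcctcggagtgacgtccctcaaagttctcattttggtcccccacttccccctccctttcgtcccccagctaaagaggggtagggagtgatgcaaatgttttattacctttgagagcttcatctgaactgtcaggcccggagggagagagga
DBX1: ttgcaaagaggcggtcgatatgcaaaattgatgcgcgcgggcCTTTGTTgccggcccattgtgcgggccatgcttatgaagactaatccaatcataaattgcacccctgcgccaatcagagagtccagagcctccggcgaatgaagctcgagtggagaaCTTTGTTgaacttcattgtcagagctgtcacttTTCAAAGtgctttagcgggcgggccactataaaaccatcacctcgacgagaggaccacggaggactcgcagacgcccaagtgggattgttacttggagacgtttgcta
FOXA1 held 2 matches, starting 232 and 107 bases before the RefSeq start of its window. In the gene coordinates given below, FOXA1 runs up to 37596059 on the minus strand, so this window lies within the gene. Both matches are therefore downstream of that 5′ end. DBX1 held 3, starting 208, 91 and 58 bases before its start. The windows of the other 5 genes with an entry, among them FOXD1, FOXB1 and NKX6-1, held none. Over all 35116 RefSeq windows of this length, 4829 (13.8%) held a match, so a match is a description of these letters and not a binding site.

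CTNNB1 itself averaged 2383 ± 271 normalized counts in KO and 3814 ± 573 in WT (SD), a ratio of 0.625, and 27060 ± 3820 in OE with Dox against 3345 ± 276 in OE without Dox. AXIN2, a general target of canonical Wnt signalling, averaged 93.4 ± 13.3 in KO against 275 ± 13.2 in WT, and 3217 ± 165 in OE with Dox against 173 ± 25.4 in OE without Dox. Both genes differed in these directions in each pair (limma, adjusted p at most 0.0010). Much of the CTNNB1 RNA was thus still present in KO, and the labels do not say which part of the gene was removed. The recovered reads in genes numbered 5233270 to 5639725 per library, so a count of 0 allows 3 reads, or 2.60 to 2.84 normalized counts. Of the defining markers of the labelled cell type, all 12 on an MGE list passed the filter, with summed normalized counts of 10396 to 12442 in KO, 2037 to 2906 in OE with Dox, 7225 to 11390 in OE without Dox and 3306 to 3434 in WT. OE without Dox differed from WT in MGE markers, with 4 of 12 called higher and none lower, where 3.43% and 2.32% of all tested genes were called.

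KO was compared with WT first. Most of the hypothalamic and ventral factors were lower in KO, and ARNT2 was higher. Mean levels were 3.66 times higher in WT for FOXA1 and 35.3 times higher for FOXD1, and SIM1 was close to 0 in KO. The called genes were 7 lower and 1 higher of 10, where 13.8% of all tested genes were called, 7.15% lower and 6.64% higher (limma on log2 of the normalized count plus 1, Benjamini-Hochberg adjusted p under 0.05). The median log2 fold of the 10 genes was −2.80, against −0.02 for all tested genes. The KO and WT libraries did not overlap for 8 genes lower in KO and 1 higher, where 9.53% and 8.61% of all genes did so. These libraries are bulk RNA, in which fewer cells of a type and less RNA per cell cannot be told apart.

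**Figure D1:**
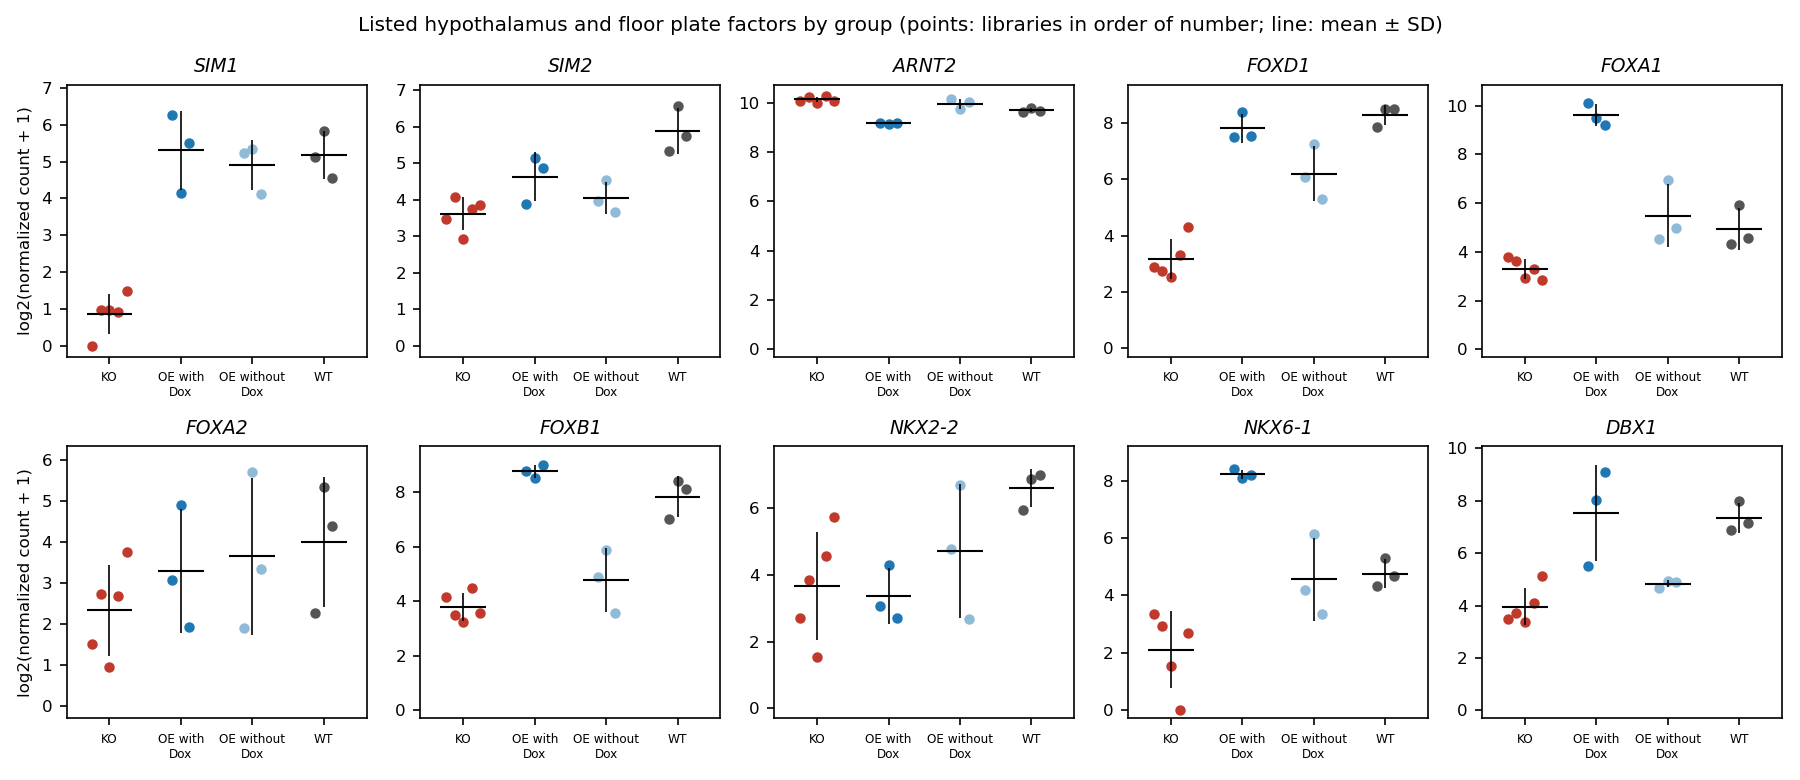
Normalized count of each listed gene, as log2 of the value plus 1 (y axis), in the 4 groups (x axis). Points are libraries and lines are the mean ± SD (n = 5 for KO, n = 3 for each other group). SIM1, FOXD1 and FOXB1 lie lower in every KO library than in every WT library, and FOXA1 and NKX6-1 lie highest in the 3 OE with Dox libraries.

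Among the PAS factors, SIM1 (ENSG00000112246, GRCh38 chromosome 6, 100385009 to 100464921, minus strand) is the regulator of paraventricular and supraoptic neurons. Its normalized counts were 0, 0.944, 0.945, 0.898 and 1.79 in KO, against 34.1, 56.3 and 22.5 in WT. All KO values lay below 2.60, the lowest level that 3 reads give, and none approached a WT value. SIM1 differed by −4.31 ± 0.46 on the log2 scale (SE, adjusted p = 3.8e-06). With 5 reads over the 5 KO libraries, the 95% Poisson interval of the KO mean was 0.299 to 2.15, and the WT mean of 37.6 ± 17.2 (SD, n = 3) was 17.5 times its upper bound. The fitted difference depends on the pseudocount at such low levels. It was −2.78 with a pseudocount of 5 and −5.17 with edgeR on recovered reads.

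SIM2 (ENSG00000159263, chromosome 21, 36699115 to 36749917, plus strand) is the second SIM gene, present in the ventral diencephalon of mouse embryos. It gave 10.2, 16.1, 6.61, 12.6 and 13.4 normalized counts in KO and 39.8, 94.7 and 52.8 in WT. The groups did not overlap, and SIM2 was lower in KO (−2.27 ± 0.35 on the log2 scale, SE, adjusted p = 0.00019). Exons of HLCS on the opposite strand overlap 16.8% of the SIM2 exons, and the library kit named in the labels does not mark strand. HLCS averaged 148 ± 22.4 in KO and 173 ± 25.3 in WT, and its part in the SIM2 values was not tested.

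ARNT2 (ENSG00000172379, chromosome 15, 80404350 to 80597933, plus strand), the dimer partner of the SIM proteins, behaved differently. It had 1075, 1194, 1024, 1247 and 1089.9 normalized counts in KO, against 801, 890.2 and 819 in WT. Every KO library lay above every WT library. The rise was small, at 0.43 ± 0.11 on the log2 scale (SE, adjusted p = 0.013). It was not called without WT 1 (adjusted p = 0.052) or without WT 3 (adjusted p = 0.055).

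Among the forkhead factors, FOXD1 (ENSG00000251493, chromosome 5, 73444827 to 73448777, minus strand) had 6.47, 5.67, 4.72, 8.98 and 18.8 normalized counts in KO. Its WT libraries had 229, 358 and 358. The lowest WT library was above the highest KO library by over 10-fold, and the fit gave −5.12 ± 0.42 (log2, SE, adjusted p = 6.3e-07). The mean was 8.93 ± 5.74 in KO and 315 ± 74.2 in WT (SD), or 35.3 times higher in WT. The antisense gene FOXD1-AS1, which covers 14.8% of the FOXD1 exons, was at 0 in all 14 libraries.

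FOXB1 (ENSG00000171956, chromosome 15, 60004234 to 60061730, plus strand), the mammillary factor, had 16.6, 10.4, 8.50, 21.6 and 10.7 normalized counts in KO and 127, 337 and 275 in WT. Again the groups were apart (−4.05 ± 0.44 on the log2 scale, SE, adjusted p = 1.1e-05). The WT mean of FOXB1 was 18.2 times the KO mean.

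FOXA1 (ENSG00000129514, chromosome 14, 37589552 to 37596059, minus strand) had 12.9, 11.3, 6.61, 8.98 and 6.26 normalized counts in KO, against 18.9, 59.9 and 22.5 in WT. KO lay below WT in every library, but by little for WT 1. Its log2 fold was −1.63 ± 0.48 (SE, adjusted p = 0.033). That call was lost without WT 2 (log2 fold −1.13, adjusted p = 0.17), WT 3, KO 3, KO 4 or KO 5 (adjusted p 0.058 to 0.075), and with edgeR on recovered reads (adjusted p = 0.084), a pseudocount of 5 (0.0568) or no filter (0.13).

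FOXA2 (ENSG00000125798, chromosome 20, 22580998 to 22585455, minus strand), the factor that specifies the floor plate, was at 1.85, 5.67, 0.945, 5.39 and 12.5 normalized counts in KO. In WT it was at 3.79, 39.3 and 19.9. WT 1 lay within the KO range, and the difference of −1.67 ± 0.93 (log2, SE) did not pass the test (adjusted p = 0.30).

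Among the homeodomain factors, DBX1 (ENSG00000109851, chromosome 11, 20156155 to 20160475, minus strand), which marks a progenitor domain at the middle of the dorsoventral axis and parts of the hypothalamus in mice, had 10.2, 12.3, 9.45, 16.2 and 34.0 normalized counts in KO. WT libraries had 118, 256 and 139. KO 5 stood above the other KO libraries and still lay far under WT. DBX1 was lower in KO, with −3.38 ± 0.64 on the log2 scale (SE, adjusted p = 0.0028).

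NKX6-1 (ENSG00000163623, chromosome 4, 84491985 to 84499292, minus strand), a factor of motor neuron and adjoining ventral progenitors, had 9.24, 6.61, 1.89, 0 and 5.37 normalized counts in KO and 18.9, 38.4 and 24.3 in WT. The groups did not overlap (log2 fold −2.66 ± 0.70, SE, adjusted p = 0.019). This call was lost without WT 2 (adjusted p = 0.077), without WT 3 (0.062) and without the filter (0.091).

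NKX2-2 (ENSG00000125820, chromosome 20, 21511017 to 21514064, minus strand), which marks the progenitors next to the floor plate, had 5.54, 13.2, 1.89, 22.5 and 51.9 normalized counts in KO. It had 60.6, 115 and 126 in WT. KO 5 came close to WT 1 without reaching it, and the log2 fold of −2.93 ± 0.97 (SE) missed the threshold (adjusted p = 0.069). Without KO 5 it was −3.44 (adjusted p = 0.024), and a pseudocount of 5 gave an adjusted p of 0.049. NKX2-2-AS1, which overlaps 30.1% of the NKX2-2 exons on the other strand, was at 0 in every library.

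Without WT 3, the called genes were 5 of 10, with ARNT2, FOXA1 and NKX6-1 no longer among them.

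OE with Dox was then compared with OE without Dox. FOXA1, FOXB1, NKX6-1 and DBX1 rose, with means 9.42 to 13.7 times those without Dox, FOXD1 rose 2.73 times, and ARNT2 fell. SIM1, SIM2, FOXA2 and NKX2-2 did not pass the test. This made 5 higher and 1 lower of 10, where 25.7% of all tested genes were called, 12.8% higher and 12.9% lower. The same 6 genes had groups that did not overlap, beside 21.2% of all genes apart and higher and 19.5% apart and lower. The median log2 fold was 1.09, against 0.02 over all tested genes.

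**Figure D2:**
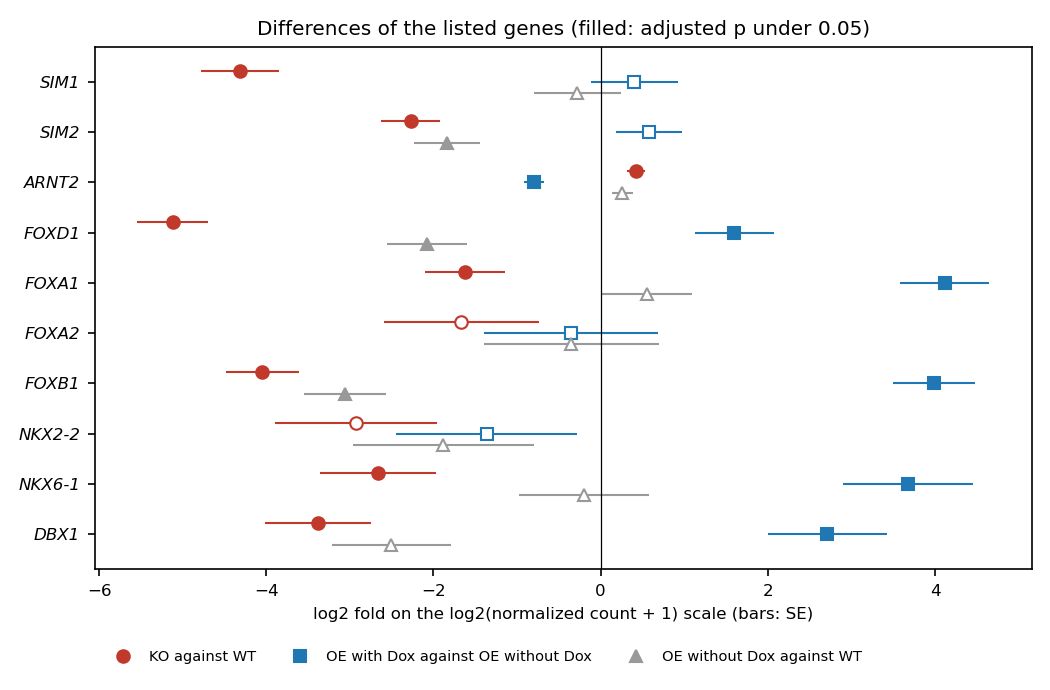
Fitted log2 difference of each listed gene (x axis, bars are the SE) in 3 comparisons, with filled symbols at adjusted p under 0.05. FOXD1, FOXA1, FOXB1, NKX6-1 and DBX1 lie below 0 for KO against WT and above 0 for OE with Dox against OE without Dox, and ARNT2 lies the other way round.

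FOXA1 had 1098, 727 and 589 normalized counts in OE with Dox. OE without Dox had 21.9, 123 and 30.8. Every library with Dox exceeded every library without it, although OE without Dox 2 stood above its group. The log2 fold of FOXA1 was 4.12 ± 0.54 (SE, adjusted p = 2.8e-05), and the mean was 805 ± 263 with Dox and 58.6 ± 56.0 without (SD), a ratio of 13.7. Without OE without Dox 2, the fold was 4.85.

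FOXA2, which shares much of its DNA-binding domain with FOXA1, showed no such difference. Its normalized counts were 7.39, 28.8 and 2.77 in OE with Dox and 2.74, 50.9 and 9.07 in OE without Dox. The ranges overlapped, and the log2 fold was −0.35 ± 1.04 (SE, adjusted p = 0.85). The highest library of FOXA2 without Dox was again OE without Dox 2.

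TTC6 lies beside FOXA1 on the opposite strand, with 5′ ends 430 bp apart and 16 bp of shared exon. The FOXA1 5′ end taken here is 37596059, and not the RefSeq start of the promoter window shown above. TTC6 was looked at after its values were seen. It had 246, 159.9 and 145 normalized counts in OE with Dox, against 1.83, 25.9 and 1.81 in OE without Dox. It was apart between the groups as FOXA1 was (log2 fold 4.91 ± 0.79, SE, adjusted p = 0.00016), and the fold was 5.99 without OE without Dox 2. LINC00261, whose 5′ end lies 6813 bp from that of FOXA2, was also chosen after its values were seen. It had 6.46, 30.7 and 3.69 in OE with Dox, against 13.7, 125 and 20.9 in OE without Dox. As with FOXA2, these groups overlapped and the difference was not called (log2 fold −1.73, adjusted p = 0.19). Unlike FOXA2, LINC00261 was lower with Dox in each of the 3 same-numbered pairs, and it was called with the replicate number as a block (adjusted p = 0.042).

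**Figure D3:**
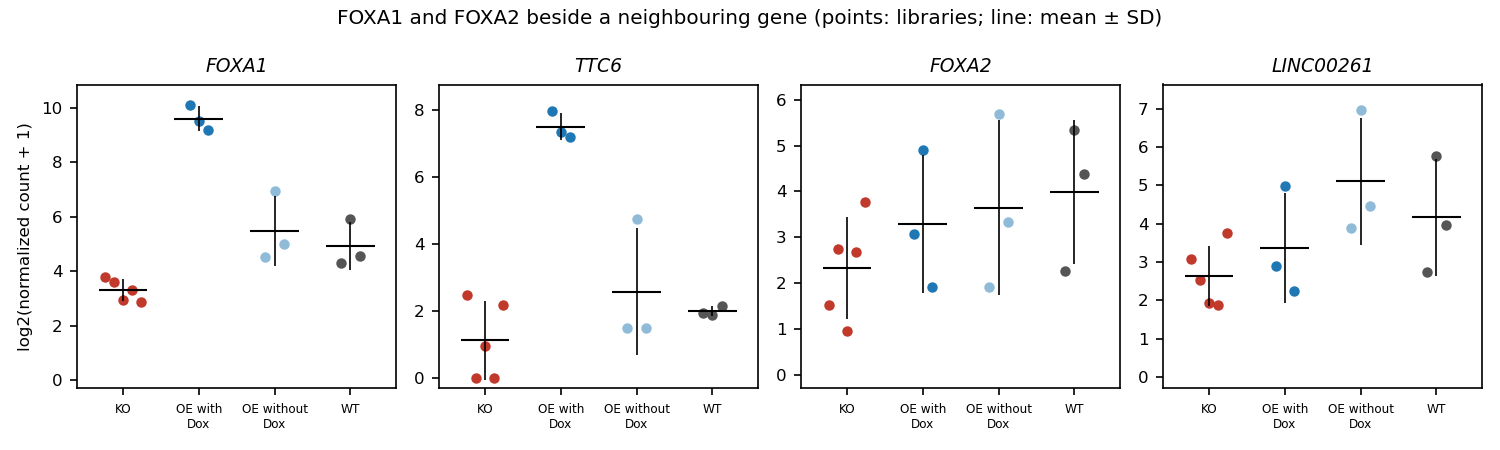
FOXA1, FOXA2 and the gene next to each, as log2 of the normalized count plus 1 (y axis) in the 4 groups (x axis). Points are libraries and lines are the mean ± SD. FOXA1 and TTC6 are highest in the 3 OE with Dox libraries, while FOXA2 and LINC00261 are highest in OE without Dox 2.

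FOXB1 had 440.5, 366 and 511 normalized counts in OE with Dox and 28.3, 58.3 and 10.9 in OE without Dox. The groups were far apart (log2 fold 3.99 ± 0.49, SE, adjusted p = 1.6e-05), with means of 439 ± 72.2 with Dox and 32.5 ± 24.0 without (SD), a ratio of 13.5. Without OE without Dox 3 the fold was 3.39.

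NKX6-1 had 337, 274 and 291 normalized counts in OE with Dox, against 17.4, 69.4 and 9.07 in OE without Dox. The libraries with Dox were close to one another, and those without were not. The log2 fold was 3.68 ± 0.78 (SE, adjusted p = 0.0026). It was 4.47 without OE without Dox 2 and 3.06 without OE without Dox 3.

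DBX1 had 45.2, 258 and 550.3 normalized counts in OE with Dox. In OE without Dox it had 24.7, 29.6 and 29.0. All libraries with Dox were higher, but their range was wide, and OE with Dox 1 was near the libraries without the drug. The log2 fold of DBX1 was 2.71 ± 0.71 (SE, adjusted p = 0.013), with 3.72 when OE with Dox 1 was left out and 1.93 when OE with Dox 3 was left out. It was not called when the 2 groups were fitted alone (adjusted p = 0.088).

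FOXD1 had 179, 333 and 182 normalized counts in OE with Dox and 65.8, 149.9 and 38.1 in OE without Dox. The groups were adjacent without overlap. The log2 fold was 1.60 ± 0.47 (SE, adjusted p = 0.020), a call lost without OE without Dox 1 (adjusted p = 0.068), OE without Dox 3 (0.0998), OE with Dox 2 (0.086) or the filter (0.076).

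ARNT2 had 576, 566 and 584 normalized counts in OE with Dox, against 1124, 856 and 1041 in OE without Dox. Its libraries with Dox lay in a narrow band, below all others of the study. The log2 fold was −0.80 ± 0.12 (SE, adjusted p = 8.2e-05).

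SIM1, the partner of ARNT2, had 75.7, 16.7 and 44.2 normalized counts in OE with Dox, against 36.6, 39.8 and 16.3 in OE without Dox. The groups overlapped (log2 fold 0.40 ± 0.52, SE, adjusted p = 0.62). SIM2 had 13.9, 34.4 and 28.6 with Dox and 14.6, 22.2 and 11.8 without (log2 fold 0.58 ± 0.40, SE, adjusted p = 0.32). NKX2-2 had 7.39, 18.6 and 5.53 with Dox and 26.5, 102 and 5.44 without. OE without Dox 2 was again the highest, and the log2 fold was −1.36 ± 1.08 (SE, adjusted p = 0.41).

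Whether the 2 effects differed was tested directly, as the difference of the Dox effect minus the KO effect. Of the 10 genes, 7 were called higher and ARNT2 lower, where 28.8% of all genes were called, 15.1% higher and 13.6% lower. FOXB1 had the largest difference, 8.04 ± 0.66 on the log2 scale (SE, adjusted p = 2.1e-07), then FOXD1 with 6.72 ± 0.64, NKX6-1 with 6.34 ± 1.04, DBX1 with 6.09 ± 0.96 and FOXA1 with 5.74 ± 0.72. Each difference also holds the gap between WT and OE without Dox, so this order depends on that gap too. Against WT, the log2 fold of OE without Dox was −3.06 for FOXB1, −2.08 for FOXD1 and −2.50 for DBX1. For NKX6-1 it was −0.20, and for FOXA1 0.56. SIM1 (4.72 ± 0.70) and SIM2 (2.85 ± 0.53) also passed, although neither passed for the Dox effect alone, and ARNT2 gave −1.22 ± 0.17. FOXA2 (1.31 ± 1.40, adjusted p = 0.54) and NKX2-2 (1.57 ± 1.45, adjusted p = 0.47) did not pass. These 8 calls were made with every single library left out in turn. Leaving out OE without Dox 2 moved FOXA1 to 6.48 and NKX6-1 to 7.13, and leaving out OE without Dox 3 moved FOXB1 to 7.43 and NKX6-1 to 5.73. DBX1 moved to 7.10 without OE with Dox 1 and to 5.31 without OE with Dox 3. By the separate comparisons, which share no library, 5 of the 10 genes were lower in KO and higher in OE with Dox, as were 475 of 17102 genes (2.78%). ARNT2 was higher in KO and lower in OE with Dox, as were 640 genes (3.74%).

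The baselines of those comparisons were not alike. OE without Dox against WT had 3 of the 10 genes called lower and none higher, where 5.74% of all genes were called, 2.32% lower and 3.43% higher. AXIN2 was lower in OE without Dox as well (log2 fold −0.67 ± 0.15, SE, adjusted p = 0.013), a call lost without OE without Dox 2 (adjusted p = 0.063). SIM2 had a log2 fold of −1.83 ± 0.40 (SE, adjusted p = 0.0094), with 14.6, 22.2 and 11.8 in OE without Dox against 39.8, 94.7 and 52.8 in WT. FOXB1 had −3.06 ± 0.49 (adjusted p = 0.0016), and −2.45 without OE without Dox 3, and it was not called when the 2 groups were fitted alone (adjusted p = 0.0508). FOXD1 had −2.08 ± 0.47 (adjusted p = 0.017). In all these genes each OE without Dox library lay under each WT library.

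DBX1 was also apart in these groups, at 24.7 to 29.6 in OE without Dox and 118 to 256 in WT. Its log2 fold of −2.50 ± 0.71 (SE) missed the threshold (adjusted p = 0.060) and passed it with the replicate number as a block (adjusted p = 0.045), with DESeq2 (0.0093) and with the 2 groups fitted alone (0.00042). In all, 4 genes were apart and lower and 0 higher, beside 11.4% and 11.6% of all genes. The SIM2 call was lost without WT 2 (adjusted p = 0.0541) or OE without Dox 3 (0.0501). The FOXD1 call was lost without WT 2, WT 3, OE without Dox 1 or OE without Dox 3 (adjusted p 0.0519 to 0.0774), and without the filter (0.065).

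The other pairings of the groups were therefore read too. In KO against OE without Dox, 3 of 10 genes were lower and none higher, where 2.11% of all genes were called, 1.75% lower and 0.351% higher. The same 3 genes were apart between the groups, beside 4.39% of all genes apart and lower and 2.47% apart and higher. SIM1 (log2 fold −4.03 ± 0.46, SE, adjusted p = 4.1e-05), FOXD1 (−3.04 ± 0.42, adjusted p = 0.00063) and FOXA1 (−2.18 ± 0.48, adjusted p = 0.023) were the 3. The FOXA1 call was lost without KO 4, KO 5 or OE without Dox 2, the last of which gave −1.45 (adjusted p = 0.11). It was also lost without the filter (adjusted p = 0.12). FOXB1 had 8.50 to 21.6 in KO and 10.9 to 58.3 in OE without Dox, ranges that overlapped (log2 fold −0.99 ± 0.44, SE, adjusted p = 0.51). NKX6-1 also overlapped (−2.46 ± 0.70, SE, adjusted p = 0.12) and was called with DESeq2 (−2.79, adjusted p = 0.013). SIM2, DBX1, NKX2-2 and FOXA2 overlapped as well. ARNT2, called higher in KO against WT, was not called against OE without Dox, and its ranges overlapped (log2 fold 0.17 ± 0.11, SE, adjusted p = 0.82).

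In OE with Dox against WT, 2 genes were higher and 2 lower, where 20.5% of all genes were called, 10.4% higher and 10.1% lower. FOXA1 (4.67 ± 0.54, adjusted p = 9.9e-06) and NKX6-1 (3.47 ± 0.78, adjusted p = 0.0048) exceeded every WT library. ARNT2 (−0.54 ± 0.12, adjusted p = 0.0038) and SIM2 (−1.25 ± 0.40, adjusted p = 0.030) lay under every WT library, and the SIM2 call was lost without WT 2, WT 3 or OE with Dox 1 (adjusted p 0.055 to 0.17). FOXB1 lay above all WT libraries, at 366 to 511 against 127 to 337, without passing the test (log2 fold 0.93 ± 0.49, adjusted p = 0.22). NKX2-2 lay under all of them, at 5.53 to 18.6 against 60.6 to 126 (−3.24 ± 1.08, adjusted p = 0.054), and it was called with edgeR (adjusted p = 0.0456), DESeq2 (0.0165), a pseudocount of 5 (0.034) and the 2 groups fitted alone (0.00024). With these, 3 genes were apart and higher and 3 apart and lower, beside 16.1% and 15.4% of all genes. FOXD1 (−0.48 ± 0.47, adjusted p = 0.56) and DBX1 (0.21 ± 0.71, adjusted p = 0.89) overlapped with WT.

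The order of levels within a group was read per kilobase of exon. In KO, ARNT2 led with 146 ± 11.8 normalized counts per kilobase (SD), and DBX1 followed with 13.2 ± 8.19. All other listed genes were under 9 on that scale, and SIM1 was last at 0.0987 ± 0.0683. In OE with Dox, DBX1 (229 ± 204), FOXA1 (182 ± 59.6) and FOXB1 (122 ± 20.03) had the highest means, FOXD1, NKX6-1 and ARNT2 lay between 74.4 and 80.7, and the remaining 4 genes were under 5. The place of DBX1 was not stable, with 36.4, 208 and 443 per kilobase in OE with Dox 1, 2 and 3, and in OE with Dox 1 it lay under FOXD1, NKX6-1 and ARNT2. In OE without Dox, ARNT2 (130 ± 17.7) stood apart from FOXD1 (29.6 ± 20.3), DBX1 (22.4 ± 2.16) and NKX2-2 (21.0 ± 23.9), which did not differ beyond their spread. In WT, DBX1 (138 ± 59.5), FOXD1 (109.9 ± 25.9) and ARNT2 (108 ± 6.11) led within their spread, ahead of FOXB1 (68.3 ± 30.0) and NKX2-2 (47.5 ± 16.6), and the other 5 genes were under 9.

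In 2 of the groups 1 library held most of the highest values. OE without Dox 2 was the highest of its group for 9 of the 10 genes, all but ARNT2, where it was the highest for 32.8% of all tested genes with a read in the group. WT 2 was the highest for 8 of the 10, against 31.8% of all genes. In KO, the highest values were shared between 4 libraries, with 5 of the 10 genes in KO 5, against 20.7% of all genes. These 5 were SIM1, FOXD1, FOXA2, NKX2-2 and DBX1, of which SIM1 had only 2 reads there. In OE with Dox, the highest values were spread as 3, 4 and 3 over the libraries. Summed over the 9 genes without ARNT2, normalized counts were 41.6 to 155 in KO, 2204, 2057 and 2204 in OE with Dox, 239, 645 and 160 in OE without Dox, and 650, 1354 and 1041 in WT. OE without Dox 2 and WT 2 also stood apart in mesenchyme markers, whose summed count was 1328 in OE without Dox 2, against 144 and 184 in the other libraries of its group, and 1541 in WT 2, against 323 and 340 in the other WT libraries. OE without Dox 2 stood apart in the endoderm marker AFP too, at 1708 against 11.9 and 7.25 in the other 2 libraries of its group. The summed count of 9 endoderm markers was 1784 in OE without Dox 2, most of it AFP, against 38.1 and 56.7 in those 2 libraries. SOX17 was at most 3.72 and HNF4A at most 2.78 in every library. In the OE with Dox libraries the endoderm sum was 171 to 440, with GATA6 at 29.6 ± 14.1 and CDX2 at 14.2 ± 4.17 (SD, n = 3). The part of mesenchyme or endoderm RNA in the values of the listed genes was not tested.

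**Figure D4:**
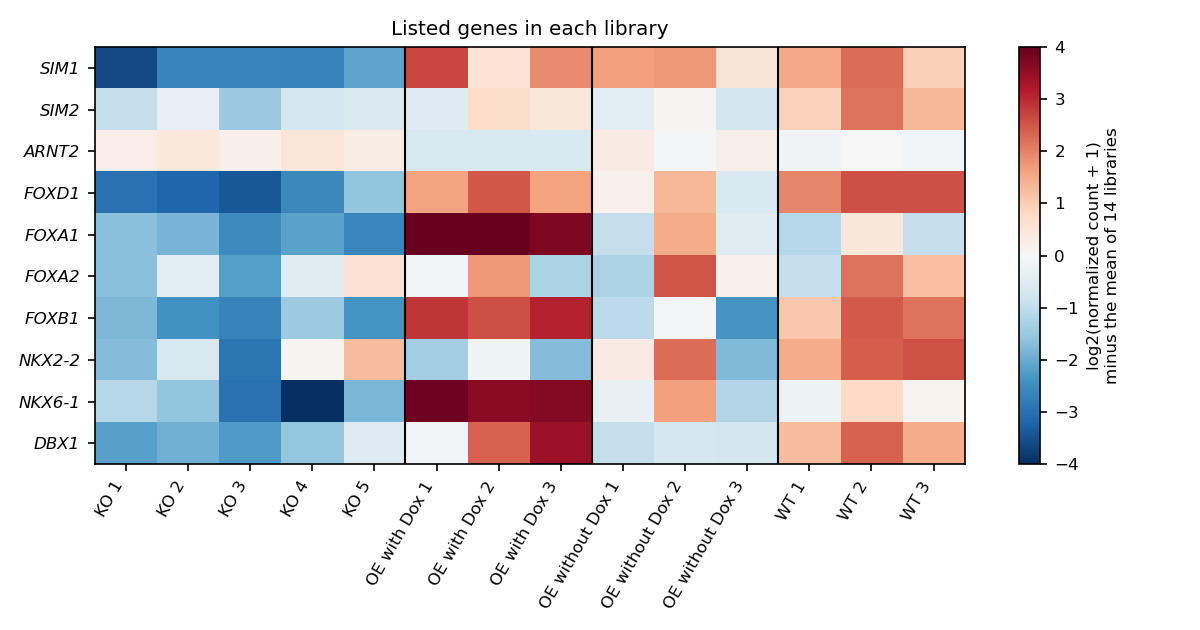
Each listed gene (rows) in each of the 14 libraries (columns), as log2 of the normalized count plus 1 minus the mean over 14 libraries. The colour scale ends at 4 on either side. The KO columns are low for SIM1, FOXD1, FOXB1 and DBX1, and OE without Dox 2 is the highest of its group for 9 genes.

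Markers of other tissues differed between the groups too. Over all tested genes, 6.64% were called higher and 7.15% lower in KO, and 12.8% higher and 12.9% lower with Dox. Mesenchyme markers summed to 68.0 to 173 in KO, 1159 to 5306 in OE with Dox, 144 to 1328 in OE without Dox and 323 to 1541 in WT. Of 7 tested mesenchyme markers, 3 were lower in KO than in WT and 5 were higher in OE with Dox than in OE without Dox. All 5 tested endoderm markers were uncalled in KO against WT, and 3 were higher in OE with Dox. Of these 3, GATA6 and CDX2 passed the filter only through the OE with Dox libraries, so their call was bound to be in that direction. The same holds for 1 mesenchyme gene, 1 thalamus gene and 2 midbrain floor plate genes called higher with Dox. Among 12 MGE markers, 5 were higher in KO than in WT, 1 was lower, and 11 were lower in OE with Dox. Of 4 tested neural crest markers, 3 were lower in KO and 1 lower with Dox, and SOX10 was at 0 in all libraries. FOXD1 is also a gene of the temporal retina, and of 5 tested retina and eye field markers 1 was higher and 1 lower in KO, and 1 was higher and 2 lower with Dox. Thalamus and dorsal diencephalon markers had 4 of 6 lower in KO, and 2 higher and 2 lower with Dox. Midbrain floor plate markers had 1 of 7 higher and 2 lower in KO, and 3 higher and 2 lower with Dox. The part of any of these tissues in the listed genes was not tested.

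Other genes of the hypothalamus moved in both directions in KO against WT and also with Dox against without it. The counts of this and the next lists stand beside 6.64% of all tested genes called higher and 7.15% lower in KO, and 12.8% higher and 12.9% lower with Dox. Of 21 regional factors, 18 were tested, with 4 higher and 7 lower for KO (median log2 fold −1.23), while 3 were higher and 7 lower in OE with Dox (median −1.04). TBX3, among these 3, passed the filter only through OE with Dox. NKX2-1, which marks both the basal hypothalamus and the MGE, averaged 2774 ± 465 in KO and 553 ± 157 in WT, and was higher in KO by 2.35 ± 0.35 (log2, SE, adjusted p = 0.00038). It averaged 494 ± 361 in OE with Dox and 1872 ± 509 in OE without Dox (log2 fold −2.12 ± 0.39, adjusted p = 0.0010). LHX5, a regulator of the mammillary and other ventral regions in mice, was lower in KO (−2.65 ± 0.34, adjusted p = 4.4e-05) and lower with Dox (−1.88 ± 0.38, adjusted p = 0.0013). OTP, which acts beside SIM1 in neurosecretory neurons, averaged 8.63 ± 4.64 in OE with Dox and 123 ± 24.5 in OE without Dox (−3.81 ± 0.65, adjusted p = 0.00048). FOXP2 was lower in KO (−1.38 ± 0.27, adjusted p = 0.0014) and higher with Dox (2.76 ± 0.30, adjusted p = 1.3e-06).

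Of 11 genes of neuroendocrine neurons, 4 passed the filter, and 1 was higher and 1 lower in KO (median −0.30), while 3 were lower with Dox (median −1.97). OXT, AVP and CRH, made by the neurons that SIM1 specifies, were among the 7 below the filter. TRH, another hormone of those neurons, averaged 30.0 ± 8.41 in KO and 228 ± 57.2 in WT (log2 fold −2.90 ± 0.31, adjusted p = 5.8e-06), and 44.5 ± 26.0 in OE with Dox against 284 ± 94.1 in OE without Dox (−2.74 ± 0.35, adjusted p = 1.4e-05). HCRT, the orexin gene, averaged 36.9 ± 21.5 in KO and 7.23 ± 3.19 in WT (2.14 ± 0.45, adjusted p = 0.0028).

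Of 9 floor plate genes, 8 were tested, with 1 higher and 3 lower in KO (median −0.97) and 5 lower with Dox (median −1.39). FOXJ1, 1 of these 5, is also on the list of other forkhead genes. Its call was lost without the filter (adjusted p = 0.051) and with the 2 groups fitted alone (0.066). It was also lost without OE without Dox 2 or 3, or without any single OE with Dox library (adjusted p 0.060 to 0.22). SHH, the floor plate ligand, averaged 143 ± 50.4 in KO and 648 ± 192 in WT (log2 fold −2.20 ± 0.31, adjusted p = 0.00017), and was not called with Dox (adjusted p = 0.35). LMX1A averaged 0.925 ± 0.920 in KO and 146 ± 21.2 in WT (−6.39 ± 0.44, adjusted p = 2.1e-08). It was also lower with Dox (−1.95 ± 0.49, adjusted p = 0.0063), where FOXA1 rose.

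Of 12 hedgehog pathway genes, 7 were lower and none higher in KO (median −1.60), and 1, CDON, was lower with Dox (median 0.34). The CDON call (adjusted p = 0.023) was lost without OE without Dox 1, OE without Dox 2, OE with Dox 1 or OE with Dox 3 (adjusted p 0.0515 to 0.113). GLI1, the transcriptional readout of the pathway, averaged 8.43 ± 2.77 in KO and 184 ± 74.8 in WT (log2 fold −4.27 ± 0.39, adjusted p = 9.5e-07). With Dox it averaged 104 ± 76.1, against 42.2 ± 9.19 without (1.04 ± 0.44, adjusted p = 0.096), and was called without OE with Dox 2 (1.56, adjusted p = 0.0090), with edgeR (adjusted p = 0.039) and with DESeq2 (0.016). GLI2 was lower in KO by −3.50 ± 0.26 (log2, SE, adjusted p = 9.2e-08).

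Of 14 further patterning factors of the ventral neural tube, 12 were tested, and 1 was higher and 6 lower in KO (median −1.20), while 3 were higher and 5 lower with Dox (median 0.37). Of these, GATA3 passed the filter only through WT, and EVX1 and EN1 only through OE with Dox, the groups in which each was the higher. PAX6, which borders the NKX2-2 domain, averaged 101 ± 41.0 in KO and 2403 ± 204 in WT (log2 fold −4.67 ± 0.31, adjusted p = 9.3e-08). PAX6 was also called lower with Dox (log2 fold −1.11), a call lost without the filter (adjusted p = 0.11). That call was lost too without OE without Dox 1, 2 or 3, or OE with Dox 1 or 3 (adjusted p 0.051 to 0.11). IRX3, which bounds the motor neuron progenitors dorsally, was lower in KO (−2.58 ± 0.49, adjusted p = 0.0014, and −3.23 without WT 1). It was higher with Dox (3.71 ± 0.54, adjusted p = 6.5e-05).

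Of 34 other forkhead genes, 23 were tested, with 3 higher and 6 lower in KO (median −0.46) and 7 higher and 5 lower with Dox (median −0.10). Of the 7, FOXB2, FOXF1, FOXF2 and FOXQ1 passed the filter only through the OE with Dox libraries, so their direction was fixed by the filter. FOXB2, the close paralog of FOXB1, had no read in the 5 KO or the 3 OE without Dox libraries, 1.89, 5.36 and 2.60 normalized counts in WT, and 133, 145 and 206 in OE with Dox. Its mean with Dox was at least 58.1-fold higher than without, taking 3 reads per library as the floor of OE without Dox. FOXQ1 averaged 150.4 ± 86.2 in OE with Dox and 0.915 ± 0.00945 in OE without Dox, where each library had 1 read.

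Of 11 relatives of SIM1 and ARNT2 in the PAS family, all were tested, and 1 was higher and 1 lower in KO (median −0.08), while 3 were higher and 1 lower with Dox (median 0.09). These 2 and 4 of 11 stand beside 13.8% and 25.7% of all tested genes called in either direction. AHR, which also pairs with ARNT proteins, averaged 4.83 ± 2.90 in KO and 15.1 ± 3.48 in WT (log2 fold −1.58 ± 0.39, adjusted p = 0.0094). It averaged 572 ± 84.0 in OE with Dox and 28.7 ± 17.1 in OE without Dox (4.44 ± 0.44, adjusted p = 5.3e-07). NPAS3 was lower with Dox (−1.91 ± 0.19, adjusted p = 5.0e-07).

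The genes with the most similar pattern over the 14 libraries were found by the root mean square difference in centred log2 values, among 13918 named genes with a mean of at least 20. FOXA1 was nearest to CNTN2 (0.61) and ALCAM (0.67), and NKX6-1 to FOXA1 itself (0.87) and CD9 (0.90). SIM1 was nearest to GLI1 and EBF2 (both 0.86), and SIM2 to OSBPL6 (0.39) and LINC02609 (0.42). FOXD1 was nearest to EFCC1 (0.69) and ZNF503-AS2 (0.82), FOXB1 to FZD10-AS1 (0.78) and PROX1-AS1 (0.80), and DBX1 to ID3 (0.72) and LSR (0.84). NKX2-2 was nearest to ENSG00000278041 (0.67) and ELF4 (0.89). ARNT2 was nearest to SCAMP5 (0.10) and CDC42EP4 (0.11), at distances that also reflect its own small spread of 0.38. FOXA2 had a mean below 20 and was not compared. These distances describe the libraries, which share group and depth, and they carry no test.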

How the data were processed

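The deposited values are a normalized signal per gene: read counts that the authors divided by 1 size factor per library. Per the submitters' processing notes, the tools were TopHat2 2.1.1, HTSeq 0.9.1, R 3.4.0 and DESeq2 with genome build hg38; their roles, the annotation release and the strand setting are not given in the sources used here. In every library 100% of values were whole multiples of 1 step (0.866 to 0.947 per read, tolerance 0.01), so whole reads were recovered. Names and coordinates came from GENCODE 44, which named 56948 of 58051 identifiers.

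The 17102 genes tested reached 10 normalized counts in 3 or more of the 14 libraries. The test was limma 3.58.1 (R 4.3.3) on log2 of the value plus 1, 1 model of 4 groups with trend and robust empirical Bayes, two-sided, adjusted by Benjamini-Hochberg over all tested genes. Folds are on that scale and understate changes of low genes. edgeR 4.0.16 on the recovered reads, an added check of the count scale, called 2418 genes in KO against WT (limma 2359) and 4420 for the Dox effect (limma 4393). Other alternatives were DESeq2 1.42.0, pseudocounts of 0.5 and 5, no filter, TMM scaling, a replicate block, fits of only the 2 compared groups, and omission of each library. Floors and intervals cover counting error only, since the reads carried no molecular identifiers and PCR copies count again.

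The members and gene lists were chosen with earlier results of these data known. The text names the 10 listed genes, CTNNB1 and AXIN2, and from each list a selection of up to 4 called genes by adjusted p, and the 2 genes of most similar pattern. TTC6, LINC00261, HLCS and FOXJ1 were added after their values or positions were seen. So were list genes that were not called or not tested (such as SOX17, HNF4A, SOX10, OXT, AVP and CRH). The same holds for list genes named for how they passed the filter. The scripts were tested on simulated counts. Replicate numbers were checked by the correlation of deviations from group means: every same-numbered pair was over 0.1 for OE with Dox and OE without Dox (0.22 to 0.40) and for OE without Dox and WT (0.17 to 0.28), as a hint from the data, and not for the other pairs of groups. Figures were drawn with matplotlib 3.10.9, and tables made with pandas 2.3.3 and numpy 2.4.6 in Python 3.11.15.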

Additional observations from a re-analysis of the deposited data

Results flagged for a closer look

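On the scale of normalized counts, DBX1 in KO had 1 library far from the others. KO 5 held 34.0 normalized counts, while the other 4 KO libraries held 9.45 to 16.2. Its gap to the nearest library, divided by the range of the group, was 0.726, above the 95% limit of Dixon's test for 5 samples. KO 5 was also the highest KO library for SIM1, FOXD1, FOXA2 and NKX2-2. DBX1 remained called lower in KO against WT without KO 5.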

How the results depend on the processing

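Across the values of the 10 genes in 6 comparisons, leaving out 1 library kept the direction and the side of the threshold 440 times, ended a call 24 times, added a call 1 time and turned a sign 15 times, each turn in a value that was not called. The other alternatives kept 444, ended 10, added 13 and turned 3. With 1 library left out, the called genes numbered 5 to 8 in KO against WT (higher 0 to 1, lower 5 to 7, with ARNT2 lost without WT 1 or WT 3), 1 to 3 in OE without Dox against WT (all lower, 1 without WT 2 or OE without Dox 3) and 3 to 4 in OE with Dox against WT (lower 1 to 2, 1 without WT 2, WT 3 or OE with Dox 1). Over all genes, OE without Dox against WT had 982 calls, and 479 without WT 3, 421 without OE without Dox 1 and 548 without OE without Dox 3; KO against OE without Dox had 360, and 180 without OE without Dox 2.

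Signs turned as follows. Leaving out 1 library moved the Dox effect between −0.075 and 0.98 for SIM1 and between −1.22 and 0.68 for FOXA2. It moved OE without Dox against WT between −0.59 and 0.11 for SIM1, −0.18 and 1.05 for FOXA1, −1.38 and 0.52 for FOXA2, and −0.99 and 0.41 for NKX6-1. It moved OE with Dox against WT between −0.35 and 0.70 for SIM1 and between −0.57 and 1.22 for DBX1. In OE without Dox against WT, edgeR gave 0.0017 for FOXA2 and 0.25 for NKX6-1, and DESeq2 gave 0.24 for NKX6-1. The cause was not tested.

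With the replicate number as a block, 9 genes were called in KO against WT (8 without it), 6 for the Dox effect (6), 4 in OE without Dox against WT (3), 9 for the difference (8), 3 in KO against OE without Dox (3) and, for OE with Dox against WT, 5 (4). The numbers did not pair KO with WT by the check above; there the block gave FOXA1 −1.48 (adjusted p = 0.0562), FOXA2 −2.26 (adjusted p = 0.0167) and NKX2-2 −3.91 (adjusted p = 0.00098). Beyond DBX1 in OE without Dox against WT, the block changed no call of the 10 genes in the 2 comparisons whose numbers pair. TMM scaling moved no call, and the median of all genes by at most 0.04 on the log2 scale. Genes near the floor of 3 reads, SIM1 and NKX6-1 in KO among them, have fitted folds that depend on the pseudocount.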
